A study of Mus musculus with 12 samples.

Results

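Serpins are a family of proteins that share 1 fold, most of which trap a target protease by offering it an exposed loop as bait. Cleavage of the loop makes the serpin snap into a more stable shape, and the protease is left bound and inactive. Hepatocytes secrete the serpins of plasma, which restrain neutrophil elastase, clotting enzymes, plasmin and complement proteases, while a few relatives carry hormones or fold collagen and inhibit nothing. A separate branch, clade B, stays mostly inside cells and is known mainly from leukocytes and epithelia. The serpin genes described here are all those with a symbol starting in Serpin, in array probe sets annotated with exactly 1 gene symbol. They are 54 genes with 1 probe set each, among 21212 probe sets of which 18786 had exactly 1 symbol.

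Liver RNA of 12 mice was measured on 1 Affymetrix array per mouse. The groups were KK males, KK females, C57BL/6J males and C57BL/6J females, with 3 mice in each, numbered as the sample titles number them. KK is an inbred strain used as a model of type 2 diabetes and obesity, and C57BL/6J is the common inbred laboratory strain. Every mouse was 8 weeks old, ate chow, lived alone for 3 days, was fasted for 4 hours and was perfused with PBS before the large liver lobe was taken, and no mouse received an agent or carried an engineered allele according to the labels. The strain is given as KK/HIJ in one label and KK/J in another, and is called KK here. The values are log2 expression, normalised by the authors across the arrays, so a difference of 1 is a 2-fold difference.

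The 12 arrays had medians of 5.90 to 6.03 and interquartile ranges of 2.64 to 2.97 on the log2 scale, and arrays of a group correlated at 0.992 to 0.996 over all probe sets. The female-specific transcript Xist averaged 4.31 in KK males and 10.70 in KK females, and 4.45 in C57BL/6J males and 10.41 in C57BL/6J females, which fits the labels. The 8 hepatocyte markers measured averaged 12.86 to 13.00 in every array. No batch or date is given in the labels. The number of arrays limits the precision of each value. In whole liver, fewer cells of a type and less RNA per cell cannot be told apart.

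Olfactory receptor genes, which liver is not known to use, gave a guide to what a silent gene looks like on these arrays. The 95th percentile of their 1068 probe sets was 5.26 on the log2 scale, and 37.1% of all values lay under it. By that guide 30 of the 54 serpin genes stayed near background in all 4 groups, with group means of 3.19 to 5.22, and 24 were above it in at least 1 group. The share near background varied between branches. Of the 25 clade B genes 21 were near background, as were both genes of the neuroserpin branch, whereas 4 of 5 antitrypsin genes were above it in every group. In between, 2 of 6 clotting and fibrinolysis genes and 2 of 5 antichymotrypsin-like genes were near background. Serpinb2, a clade B gene near background, is counted here with the clotting and fibrinolysis genes and not among the 25.

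KK and C57BL/6J livers differed in part of the serpin family. With strain compared over both sexes, 13 of 54 serpin genes (24.1%) passed the limma test at an adjusted p under 0.05, beside 11.7% of all probe sets. They were 6 genes higher in KK, beside 5.42% of all probe sets, and 7 lower, beside 6.31%. The values of the 6 KK and 6 C57BL/6J mice did not overlap for 7 serpin genes, beside 5.98% of all probe sets. The median difference over the 54 was 0.01, as over all probe sets, with genes moving both ways. The change was at least 2-fold for 4 genes, Serpina1d, Serpina4-ps1, Serpina12 and Serpina11, beside 0.863% of all probe sets. In no comparison did 41 of the 54 genes pass.

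The antitrypsin genes are mouse copies of the human gene for alpha-1 antitrypsin, the main plasma inhibitor of neutrophil elastase, and lie close together on chromosome 12. Their starts are nearly the same sequence in the C57BL/6J reference genome, and the windows below show how little separates Serpina1d, which differed between the strains, from the copies that did not pass the test in the fit as reported. Each window of 100 bases is from RefSeq (GRCm38.p6, minus strand) and spans the annotated start. The windows are chr12:103773610-103773709 for Serpina1d, chr12:103863601-103863700 for Serpina1a, chr12:103738176-103738275 for Serpina1b and chr12:103904938-103905037 for Serpina1c. Capitals mark GTTAAT, the core of the binding site of the hepatocyte factor HNF1.
Serpina1d: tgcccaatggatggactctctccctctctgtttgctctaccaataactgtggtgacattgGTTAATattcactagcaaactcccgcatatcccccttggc
Serpina1a: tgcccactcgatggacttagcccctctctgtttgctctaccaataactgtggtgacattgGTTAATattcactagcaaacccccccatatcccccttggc
Serpina1b: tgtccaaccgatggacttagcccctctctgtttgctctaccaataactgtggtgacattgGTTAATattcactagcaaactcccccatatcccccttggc
Serpina1c: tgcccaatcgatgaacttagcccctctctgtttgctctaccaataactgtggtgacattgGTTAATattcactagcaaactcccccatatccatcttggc
Serpina1d differed from Serpina1a and Serpina1b at 8 bases each and from Serpina1c at 9, while those copies differed from each other at 4 or 5. At 6 bases Serpina1d had a base that none of the other three had: C9G, T18C, A19T, G20C, C21T and C85G, counted from the left end of the window, with the shared base first and that of Serpina1d last. GTTAAT, searched on both strands, was found in 7.1% of 32851 mouse promoters of 300 bases and in those of 8 of the 47 serpin genes that had one. A match describes letters only, and the KK sequence was not analysed here.

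Serpina1d was the serpin gene that fell most in KK liver. It read 9.49, 9.92 and 9.78 in KK males and 8.14, 7.63 and 8.44 in KK females, against 11.39, 11.54 and 11.35 in C57BL/6J males and 11.41, 11.37 and 11.51 in C57BL/6J females. Every KK mouse was below every C57BL/6J mouse, and every KK female was below every KK male, whereas the C57BL/6J sexes overlapped. KK liver was 5.77-fold lower over both sexes, a log2 difference of -2.53 (SE 0.12, adjusted p = 6.22e-08). In females the gap was 10.27-fold (log2 difference -3.36, SE 0.169, adjusted p = 2.36e-07). In males it was 3.24-fold (log2 difference -1.70, SE 0.169, adjusted p = 8.66e-05).

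The neighbouring antitrypsin genes did not pass the strain test. Serpina1a averaged 13.20 in KK males and 13.18 in KK females, against 13.22 in C57BL/6J males and 13.12 in C57BL/6J females. Its strain difference over both sexes was 0.02 (SE 0.049, adjusted p = 0.908). Serpina1b differed by 0.12 (SE 0.043, adjusted p = 0.114) and Serpina1c by -0.13 (SE 0.087, adjusted p = 0.457). Serpina1b did pass after cyclic loess normalisation (adjusted p = 0.0178) or with an intensity trend and robust prior in limma (adjusted p = 0.0393), and Serpina1c passed in males with array weights (-0.355, adjusted p = 0.0408), each still far smaller than the Serpina1d difference. Serpina1f, the other measured gene of the group, was near background. Transcripts of these copies are close to identical in places, so a probe set may read more than 1 of them and its value is uncertain as to the gene. Each probe set also gives 1 value per mouse here, and whether KK transcripts match the probes less well was not tested.

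**Figure D1:**
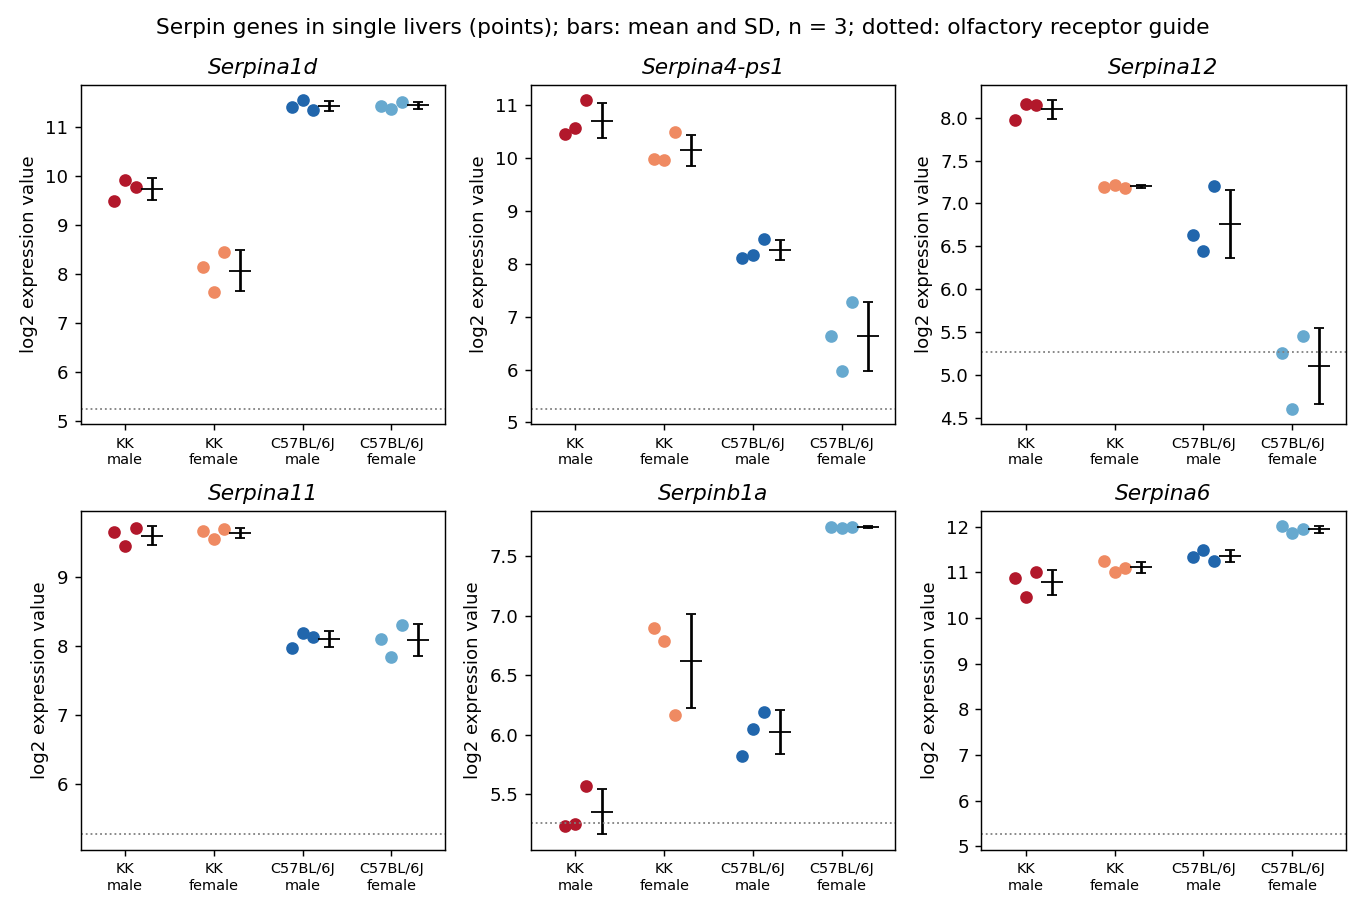
Log2 expression of 6 serpin genes in each of 12 mice, by strain and sex, with KK left of C57BL/6J and males left of females. Points are mice, bars are the mean and SD of 3 mice, and the dotted line is the olfactory receptor guide of 5.26; KK points lie below C57BL/6J points for Serpina1d and above them for Serpina4-ps1 and Serpina11.

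Further along the same cluster, 3 genes were higher in KK: Serpina11, a liver serpin of little-known function, Serpina12, which encodes vaspin, a secreted inhibitor of kallikrein 7, and Serpina4-ps1, a transcribed mouse pseudogene related to human kallistatin. In RefSeq (GRCm38.p6) these lie next to each other in the order Serpina11, Serpina9, Serpina12 and Serpina4-ps1, with only 1 predicted gene between them. The promoters of Serpina11 and Serpina12 are shown because both genes were at least 2-fold higher in KK. The Serpina11 window is chr12:103989908-103990207 and the Serpina12 window chr12:104044394-104044693, both on the minus strand in GRCm38.p6. Capitals mark TTCNNNGAA, the core of the site of STAT5, a factor downstream of growth hormone.
Serpina11: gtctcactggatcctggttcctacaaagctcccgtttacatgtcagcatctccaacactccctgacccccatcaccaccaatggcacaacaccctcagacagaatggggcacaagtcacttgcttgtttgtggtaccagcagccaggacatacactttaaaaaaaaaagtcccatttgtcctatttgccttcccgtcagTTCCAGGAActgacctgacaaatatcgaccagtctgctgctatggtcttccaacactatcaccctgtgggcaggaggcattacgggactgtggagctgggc
Serpina12: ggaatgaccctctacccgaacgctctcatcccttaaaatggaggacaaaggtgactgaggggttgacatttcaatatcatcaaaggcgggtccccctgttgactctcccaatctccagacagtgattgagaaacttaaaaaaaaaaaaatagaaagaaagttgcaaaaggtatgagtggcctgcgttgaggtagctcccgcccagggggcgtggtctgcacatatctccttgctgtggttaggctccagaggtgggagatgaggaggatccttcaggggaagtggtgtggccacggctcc
The match in Serpina11 starts 51 bases before the annotated start, and neither these letters nor GTTAAT occurs in the Serpina12 window. TTCNNNGAA was present in 8.3% of the 32851 promoters and in those of 7 serpin genes.

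Serpina4-ps1 was the serpin transcript with the largest rise in KK liver. It read 10.46, 10.57 and 11.09 in KK males and 9.97, 9.97 and 10.49 in KK females, against 8.12, 8.17 and 8.47 in C57BL/6J males and 6.63, 5.98 and 7.28 in C57BL/6J females. The strains did not overlap, and C57BL/6J females were the lowest and the most scattered group. The log2 difference over both sexes was 2.98 (SE 0.195, adjusted p = 9.71e-07), which is 7.91-fold. It was 11.44-fold in females (adjusted p = 1.08e-05) and 5.47-fold in males (adjusted p = 0.000223).

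Serpina12 read 7.97, 8.16 and 8.15 in KK males and 7.19, 7.22 and 7.19 in KK females, against 6.63, 6.44 and 7.21 in C57BL/6J males and 5.25, 4.61 and 5.45 in C57BL/6J females. Within each sex the strains did not overlap, although C57BL/6J male 3 lay among the KK females. C57BL/6J females averaged 5.10, under the background guide, so the gene was above it in 3 of the 4 groups. With C57BL/6J values under the guide set to it, KK liver was at least 3.04-fold higher over both sexes (fitted log2 difference 1.72, SE 0.147, adjusted p = 9.68e-06). In females it was at least 3.67-fold higher (fitted log2 difference 2.10, adjusted p = 7.03e-05). In males it was higher by 1.34 on the log2 scale (adjusted p = 0.00247).

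Serpina11 differed by strain and passed no sex test. It read 9.65, 9.45 and 9.71 in KK males and 9.67, 9.55 and 9.69 in KK females, against 7.96, 8.19 and 8.13 in C57BL/6J males and 8.10, 7.84 and 8.30 in C57BL/6J females. All KK mice were above all C57BL/6J mice, with the sexes mixed within each strain. The rise was 2.90-fold over both sexes (log2 difference 1.53, SE 0.08, adjusted p = 1.43e-07).

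**Figure D2:**
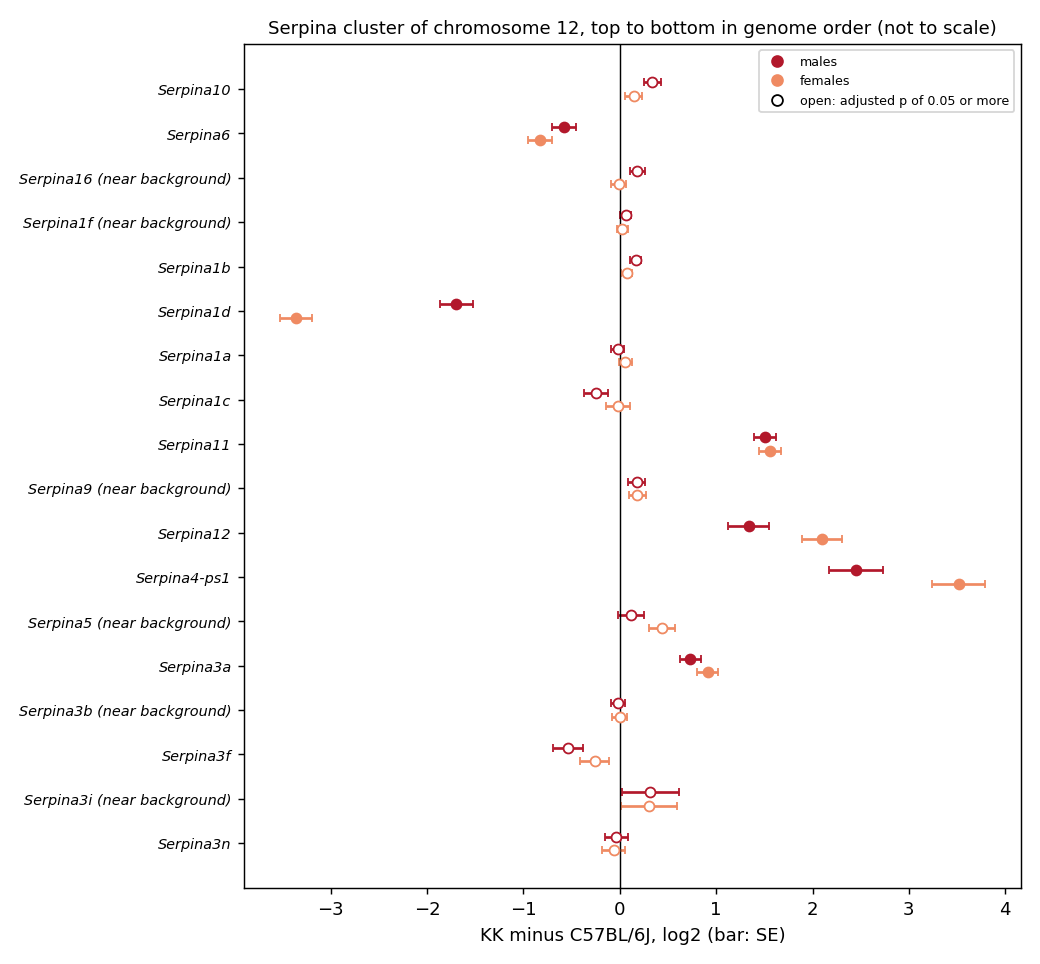
Strain difference (KK minus C57BL/6J, log2) of the 18 serpin genes on chromosome 12, in their genome order and not to scale, for males in dark red and females in orange with standard error bars. Filled points passed the test in that sex; Serpina1d lies below 0 and Serpina11, Serpina12 and Serpina4-ps1 lie above it in both sexes, with Serpina9, between Serpina11 and Serpina12, near 0.

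Chromosome 12 held 18 of the serpin genes, and 8 of these passed the strain test over both sexes, beside 11.7% of all probe sets. On chromosome 13 it was 3 of 15 and on chromosome 1 it was 1 of 12, but most serpin genes there were near background. Among genes above the guide in at least 1 group, 8 of 12 on chromosome 12, 2 of 3 on chromosome 13 and 1 of 2 on chromosome 1 passed. Those counts favour genes that differ, because Serpina12, Serpina3a and Serpinb8 entered them through only some groups. The share that passed among all probe sets above the guide was not counted, so the chromosomes cannot be compared by these numbers. The differences did not run one way along the cluster, and genes that moved stood beside genes that did not pass. Serpina9, which lies between Serpina11 and Serpina12, was near background and did not pass (adjusted p = 0.0863), but did without C57BL/6J female 3 (adjusted p = 0.0413). It also did with array weights (adjusted p = 0.0117) or with a covariate for the spread of the arrays (adjusted p = 0.04). Of 14 genes on either side of the cluster, 3 were higher in KK (Clmn, Dicer1 and Syne3, by 0.24 to 0.53), 1 was lower (Ifi27, -0.65), and the median difference was 0.01.

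The antichymotrypsin-like genes are a set of Serpina3 copies, expanded in rodents, that includes the acute-phase gene Serpina3n. Of 5 measured, Serpina3a was higher in KK, Serpina3f was lower, and the others did not pass. Serpina3a read 5.74, 6.18 and 5.88 in KK males and 5.93, 6.11 and 6.22 in KK females, against 5.25, 5.17 and 5.18 in C57BL/6J males and 5.10, 5.29 and 5.13 in C57BL/6J females. No KK mouse overlapped a C57BL/6J mouse, and both C57BL/6J groups averaged less than the background guide. With C57BL/6J values under the guide set to it, KK liver was at least 1.67-fold higher over both sexes (fitted log2 difference 0.82, adjusted p = 2.18e-05). It was at least 1.76-fold higher in females (fitted log2 difference 0.91, adjusted p = 0.000292). In males it was at least 1.59-fold higher (fitted log2 difference 0.73, adjusted p = 0.00186).

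Serpina3f was weaker in the test, with strain means of 5.93 in KK males and 6.13 in KK females, against 6.47 in C57BL/6J males and 6.39 in C57BL/6J females. Its difference of -0.40 (SE 0.109, adjusted p = 0.0322) missed the threshold when any 1 of 6 arrays was left out, which were KK males 1, 2 and 3, KK female 2 and C57BL/6J females 2 and 3, at adjusted p values of 0.0505 to 0.0784. Serpina3n was abundant and did not pass, at 11.66 in KK males and 11.70 in KK females, against 11.70 in C57BL/6J males and 11.76 in C57BL/6J females. Like the antitrypsins, these copies share sequence, so their values are uncertain as to the gene.

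Serpina6 encodes corticosteroid-binding globulin, the plasma carrier of glucocorticoids, and Serpina7 encodes thyroxine-binding globulin. Serpina6 was lower in KK. It read 10.87, 10.47 and 10.998 in KK males and 11.24, 11.004 and 11.09 in KK females, against 11.34, 11.50 and 11.24 in C57BL/6J males and 12.01, 11.86 and 11.95 in C57BL/6J females. The strains did not overlap, although KK female 1 and C57BL/6J male 3 were nearly equal. KK liver was 1.63-fold lower over both sexes (SE 0.087 on the log2 scale, adjusted p = 0.000186).

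In females the Serpina6 difference was -0.83 (adjusted p = 0.00143). In males it was -0.58 (adjusted p = 0.0161), and it missed the threshold without C57BL/6J male 2 (adjusted p = 0.0719) or with only the male arrays fitted (adjusted p = 0.0611). Serpina7, on chromosome X, did not pass in any comparison, with a strain difference of -0.28 over both sexes (adjusted p = 0.606). It scattered widely among C57BL/6J females, which read 7.22, 7.31 and 8.74, against 7.15, 6.94 and 7.31 in KK females. Among 14 other genes that handle or respond to glucocorticoid or thyroid hormone, 4 were higher in KK and 3 lower over both sexes, beside 11.7% of all probe sets. The median difference was 0.14, against 0.01 over all probe sets. The higher genes were Thrsp, a thyroid-responsive gene of fat synthesis (1.42), Crym (0.68), Tsc22d3 (0.43) and Thra (0.28). The lower genes were Fkbp5 (-0.86), Dio1, a deiodinase (-0.37), and Slc16a10 (-0.27). For Tsc22d3 the value over both sexes does not describe each sex. Its difference was 1.10 in females (adjusted p = 0.000987), and the male difference minus the female one was -1.35 (adjusted p = 0.0372). Fkbp5 was at -1.49 in males (adjusted p = 0.0165), and its test of a difference between the sexes did not pass (adjusted p = 0.673).

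Of the 6 clotting and fibrinolysis serpins 4 were above the background guide in every group, as was Serping1 of the complement system. Serpinc1, which encodes antithrombin, averaged 12.24 in KK males and 12.46 in KK females, against 12.41 in C57BL/6J males and 12.50 in C57BL/6J females. Its strain difference of -0.11 did not pass (adjusted p = 0.0981), except with an intensity trend and robust prior (adjusted p = 0.049), and in males with array weights (adjusted p = 0.0405). Serping1, the gene of C1 inhibitor, differed by -0.02 (adjusted p = 0.924), and Serpinf2, the gene of the plasmin inhibitor, by -0.11 (adjusted p = 0.118).

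In the clotting group 2 of 6 genes passed the strain test, beside 11.7% of all probe sets, by small amounts. Serpind1, which encodes the thrombin inhibitor heparin cofactor II, was lower in KK. It read 11.71, 11.68 and 11.69 in KK males and 11.68, 11.62 and 11.65 in KK females, against 11.91, 11.79 and 11.85 in C57BL/6J males and 11.85, 11.85 and 11.94 in C57BL/6J females. The strains did not overlap, at a difference of only -0.19 (SE 0.041, adjusted p = 0.0106). In females alone it was -0.22 (adjusted p = 0.0412), a call that was lost without any 1 of the arrays except C57BL/6J male 2, at adjusted p values of 0.0509 to 0.143, and with only the female arrays fitted (adjusted p = 0.125).

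Serpina10, which encodes the protein Z-dependent inhibitor of factor Xa, had a strain difference of 0.24 (SE 0.065, adjusted p = 0.0298), KK being higher. It averaged 9.40 in KK males and 9.41 in KK females, against 9.06 in C57BL/6J males and 9.27 in C57BL/6J females. Without KK male 2, KK male 3, KK female 3, C57BL/6J male 1 or C57BL/6J female 2 it missed the threshold, at adjusted p values of 0.0569 to 0.0745. In males alone it did not pass (adjusted p = 0.0549), but did without KK female 3 (adjusted p = 0.0472) or C57BL/6J female 2 (adjusted p = 0.0353). The male difference also passed after quantile (adjusted p = 0.0105) or cyclic loess normalisation (adjusted p = 0.0108). It did so too with array weights (adjusted p = 0.031) or when only probe sets above the median level were tested (adjusted p = 0.0395). Serpina5, which encodes the protein C inhibitor, was near background and did not pass, but was higher in KK without KK female 2 (adjusted p = 0.00985). With array weights it was higher in KK over both sexes (adjusted p = 0.00868) and in females (adjusted p = 0.00923).

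Among serpins that inhibit no protease, the hormone carrier Serpina6 was lower in KK as given above, and Serpinf1 and Serpinh1 did not pass between strains. Serpinf1, the gene of pigment epithelium-derived factor, averaged 11.72 in KK males and 11.90 in KK females, against 11.78 in C57BL/6J males and 11.80 in C57BL/6J females. Serpinh1, the gene of a collagen chaperone, averaged 7.0 in KK males and 6.65 in KK females, against 7.0 in C57BL/6J males and 7.12 in C57BL/6J females. Its strain difference over both sexes was -0.23 (adjusted p = 0.162), and it passed when KK female 2 was left out (-0.31, adjusted p = 0.0343) or with array weights (adjusted p = 0.0413). It read 6.38, 6.95 and 6.62 in KK females, against 7.07, 7.27 and 7.01 in C57BL/6J females, which did not overlap. The female difference was -0.47 (adjusted p = 0.0675), and it passed without KK female 2 (adjusted p = 0.0139), with array weights (adjusted p = 0.0135) or when only the probe sets above the median level were tested (adjusted p = 0.0404).

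**Figure D3:**
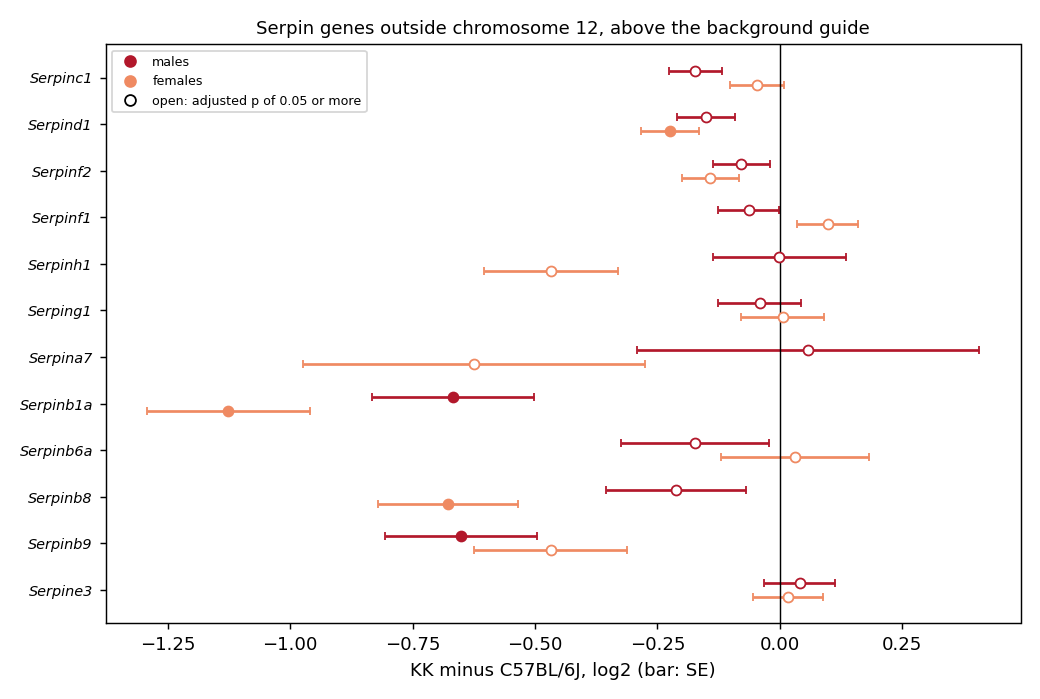
Strain difference (KK minus C57BL/6J, log2) of the 12 serpin genes outside chromosome 12 that were above the background guide in at least 1 group, for males in dark red and females in orange with standard error bars. Filled points passed the test in that sex; Serpinb1a lies farthest below 0 and the secreted inhibitors Serpinc1, Serpinf2 and Serping1 lie near 0.

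Within clade B, counted without Serpinb2, 4 of 25 genes passed the strain test, a share of 16.0% and so near the 11.7% of all probe sets. Serpinb2 did not pass (adjusted p = 0.861). Serpinb1a, which encodes an inhibitor of neutrophil serine proteases, was lower in KK. It read 5.24, 5.25 and 5.57 in KK males and 6.90, 6.79 and 6.17 in KK females, against 5.82, 6.05 and 6.19 in C57BL/6J males and 7.75, 7.73 and 7.75 in C57BL/6J females. All females were above all males of their strain. Within each sex the strains did not overlap, and the difference over both sexes was -0.90 (SE 0.118, 1.86-fold, adjusted p = 0.000304).

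In females the Serpinb1a strain difference was -1.13 (adjusted p = 0.00143). In males it was -0.67 (adjusted p = 0.0378), and it missed the threshold without any 1 of KK males 1 and 2, C57BL/6J males 2 and 3 and the 3 C57BL/6J females, at adjusted p values of 0.0517 to 0.149. Neutrophil markers, whose cells are a known source of this gene, were near background for 6 of 7 genes. Ngp was the 1 of these 7 that passed between strains, and was higher in KK.

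Serpinb9, which encodes an inhibitor of granzyme B, was lower in KK by 0.56 (SE 0.11, adjusted p = 0.00536). It read 5.28, 5.12 and 5.53 in KK males and 5.83, 5.44 and 5.57 in KK females, against 5.64, 5.95 and 6.30 in C57BL/6J males and 6.00, 6.16 and 6.08 in C57BL/6J females. KK female 1 overlapped C57BL/6J male 1. In males the difference was -0.65 (adjusted p = 0.031), and it missed the threshold without KK male 1, KK male 2, C57BL/6J male 2 or C57BL/6J male 3, at adjusted p values of 0.0854 to 0.124, and with only the male arrays fitted (adjusted p = 0.081).

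Serpinb8, whose human counterpart can inhibit furin, averaged 5.02 in KK males and 5.07 in KK females, against 5.23 in C57BL/6J males and 5.75 in C57BL/6J females. Only the last group was above the background guide. With KK values under the guide set to it, KK liver was at least 1.17-fold lower over both sexes (fitted log2 difference -0.445, adjusted p = 0.0123). That call was lost when arrays were weighted by quality (adjusted p = 0.0521). In females KK liver was at least 1.40-fold lower (fitted log2 difference -0.68, adjusted p = 0.0138). Without KK female 2 or C57BL/6J female 2 or 3 the adjusted p in females was 0.0549 to 0.0619. Serpinb9b was the 1 gene near background in all groups that passed a test. It averaged 5.05 in KK males and 4.92 in KK females, against 4.80 in C57BL/6J males and 4.78 in C57BL/6J females (adjusted p = 0.0422), and missed the threshold without any 1 of the arrays except KK female 1 and KK male 3, at adjusted p values of 0.0586 to 0.0955.

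Serpinb6b, another clade B gene near background, did not pass (adjusted p = 0.0536), but did, as lower in KK, without KK female 1 (adjusted p = 0.0335) or C57BL/6J male 1 (adjusted p = 0.0162). It also did with an intensity trend and robust prior (adjusted p = 0.0438) or with a covariate for the spread of the arrays (adjusted p = 0.0323). Some markers of other liver cells were lower in KK too, as Serpinb9, Serpinb8 and Serpinb1a were. Of 7 Kupffer cell and macrophage genes, 3 were lower in KK over both sexes, beside 11.7% of all probe sets, and none was higher. The 3 were Marco, Adgre1 and Clec4f, with differences of -0.74, -0.59 and -0.41. The other markers did not pass, with differences of -0.38 for Csf1r to 0.23 for Timd4. Within females 1 of the 7 was lower (Marco, -0.81), beside 6.5% of all probe sets, and the list median was -0.003. There Timd4, Vsig4 and Cd5l were at 0.66, 0.46 and 0.35 without passing. Within males 2 of the 7 were lower (Clec4f and Csf1r, each at -0.75), beside 5.15% of all probe sets, and the list median was -0.68. The mean of the 7 ranged over 7.41 to 7.83 in KK males and 8.29 to 9.08 in KK females, against 7.91 to 8.58 in C57BL/6J males and 8.51 to 8.67 in C57BL/6J females, and none of them was near background. Over both sexes, 2 of 7 sinusoidal endothelial genes and 2 of 9 stellate cell and fibroblast genes were lower, and none was higher. Of 5 mast cell genes 1 was lower (Kit, -0.27), and of 5 megakaryocyte and platelet genes 1 was higher (Ppbp, 0.80). Of 6 B and T cell genes 0 passed (0 at an unadjusted p under 0.05). The part of these cell types in the serpin differences was not tested.

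In the strain comparison within females 9 of 54 serpin genes passed, beside 6.5% of all probe sets, and within males 8 passed, beside 5.15%. The 4 genes higher in KK were in each case Serpina11, Serpina12, Serpina3a and Serpina4-ps1, beside 3.18% of all probe sets in females and 2.08% in males. The lower genes numbered 5 in females, beside 3.31%, and 4 in males, beside 3.06%. Among them, Serpina1d, Serpina6 and Serpinb1a passed in each sex, Serpinb8 and Serpind1 in females and Serpinb9 in males, with no test of a difference between the sexes passed by the last 3 (adjusted p = 0.765, 0.91 and 0.913).

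Fewer serpin genes differed by sex. In C57BL/6J liver 4 of 54 passed, beside 1.03% of all probe sets, and in KK liver 3 passed, beside 2.17%. Serpina12 was higher and Serpinb1a was lower in males of each strain. In C57BL/6J males Serpina12 was at least 2.71-fold higher (fitted log2 difference 1.66, adjusted p = 0.00126), with C57BL/6J female values under the background guide set to it. In KK males it was higher by 0.90 on the log2 scale (adjusted p = 0.0481). The KK value rested on the full set of arrays, since the adjusted p was 0.0622 to 0.164 without any 1 of the 6 KK arrays, C57BL/6J male 1 or C57BL/6J female 1. Serpinb1a was lower in C57BL/6J males by 1.73 (adjusted p = 0.000143) and in KK males by 1.27 (adjusted p = 0.00218).

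As with Serpinb1a, 6 of the 7 Kupffer cell and macrophage genes were lower in KK males than in KK females, beside 2.17% of all probe sets that passed. The median difference of the 7 was -1.07. In C57BL/6J, where Serpinb1a was lower in males too, 0 of the 7 passed (2 at an unadjusted p under 0.05), with a median of -0.40. The ranges of the list mean in each group are those given above, and its part was not tested. Serpinc1 read 12.24, 12.24 and 12.24 in KK males, against 12.48, 12.42 and 12.47 in KK females. Its sex difference in KK of -0.21 did not pass (adjusted p = 0.0726), but did after quantile (adjusted p = 0.0468) or cyclic loess normalisation (adjusted p = 0.0445), with the trend and robust prior (adjusted p = 0.0271) or with array weights (adjusted p = 0.0174). Serpinb6a, whose human counterpart inhibits cathepsin G, was lower in KK males by 0.57 without passing (adjusted p = 0.0826), and passed without KK female 2 (-0.73, adjusted p = 0.0268). Serpinb6a also passed with array weights (adjusted p = 0.0093) or when only probe sets above the median level were tested (adjusted p = 0.0486). It read 6.82, 7.10 and 7.13 in KK males, against 8.01, 7.28 and 7.48 in KK females.

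In C57BL/6J alone, Serpina4-ps1 was higher in males by 1.63 (adjusted p = 0.0116), and missed the threshold without C57BL/6J male 3 (adjusted p = 0.0668). Serpina6 was lower in C57BL/6J males by 0.58 (adjusted p = 0.0486), a value that missed the threshold without any 1 of the arrays except KK males 2 and 3, at adjusted p values of 0.055 to 0.207. In KK, Serpina4-ps1 was 0.56 higher in males (adjusted p = 0.349) and Serpina6 0.33 lower (adjusted p = 0.22), neither passing. The tests of the strain by sex term for these genes did not pass, with an adjusted p of 0.691 for Serpina4-ps1.

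**Figure D4:**
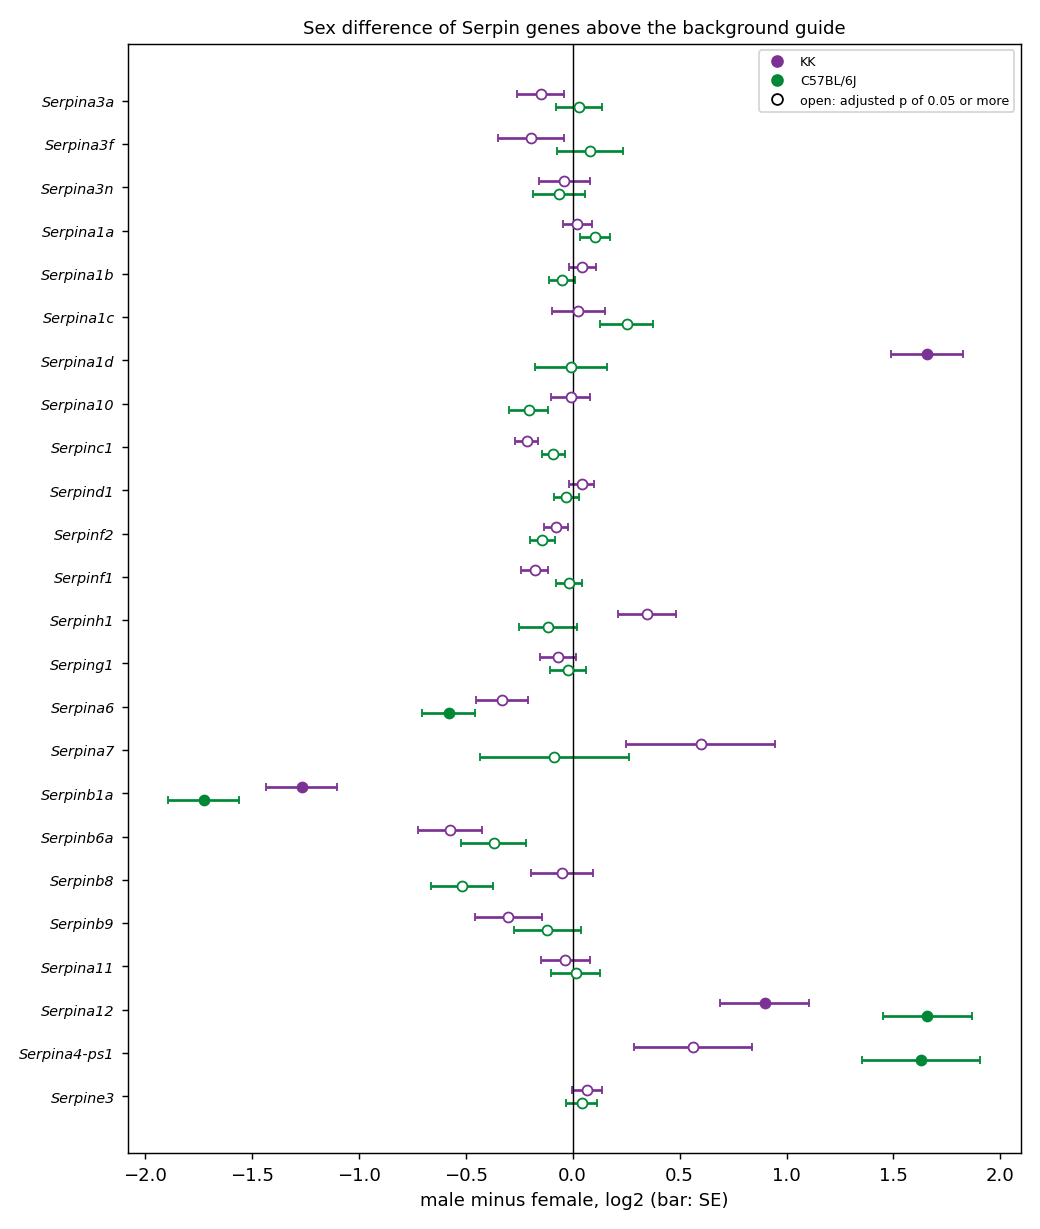
Sex difference (male minus female, log2) of the 24 serpin genes above the background guide in at least 1 group, for KK in purple and C57BL/6J in green with standard error bars. Filled points passed the test in that strain; Serpina1d stands far above 0 in KK and at 0 in C57BL/6J, and Serpinb1a lies below 0 in both.

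Serpina1d was the 1 serpin gene whose strain difference itself differed between the sexes, beside 0.141% of all probe sets for which this held. It was higher in KK males than in KK females by 1.66 (SE 0.169, 3.16-fold, adjusted p = 0.000321), while C57BL/6J males averaged 11.42 and C57BL/6J females 11.43. The strain by sex term was 1.66 (SE 0.239, adjusted p = 0.0168). Without KK male 2, C57BL/6J male 3 or C57BL/6J female 3 the adjusted p of that term was 0.0594, 0.0603 and 0.0534 in that order, with the same direction. In the C57BL/6J reference genome, the HNF1 core and most of the 100 bases around it, shown above, are shared by the other antitrypsin copies shown. Those copies did not pass the sex test in either strain. The KK sequence was not analysed, and a part of these bases in the Serpina1d differences was not tested.

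Other genes of the serpins' surroundings were counted over both sexes, beside the 11.7% of all probe sets that passed between strains. A list of 25 genes held clotting, fibrinolysis, complement and other proteases, and the clotting cofactor F3. Of these, 1 was higher in KK (Tmprss6, 0.17) and 5 were lower, with a median difference of -0.05. The lower genes included Masp2, a complement protease (-0.34), and Hgfac, which activates hepatocyte growth factor (-0.36). Among 28 protease inhibitors of other families, 2 were higher and 5 lower, with a median of -0.04. The murinoglobulin gene Mug2, whose protein traps many proteases, was lower by 2.19.

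Among 19 genes of the secretory pathway and of serpin quality control, 1 was higher in KK and none was lower (4 at an unadjusted p under 0.05). That gene was Mcfd2, part of a cargo receptor for export from the endoplasmic reticulum, at 0.30. Among 22 liver transcription factors and regulators of sex bias, 4 were higher and 3 lower over both sexes. Between sexes, 1 of the 22 was higher in males and 2 lower in each strain, beside 1.03% of all probe sets in C57BL/6J and 2.17% in KK. The strain by sex term passed for 1 gene upward and 1 downward, beside 0.141% of all probe sets. Cish had a term of 1.79 (adjusted p = 0.0184). Bcl6, a transcriptional repressor known for its male bias in mouse liver, was higher in C57BL/6J males than females by 2.69, and its strain by sex term was -2.73.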

How the data were processed

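The deposited values are log2 expression per probe set, made by the authors with RMA in the affy package per the submitters' processing notes, with no version, genome build or filter given in the sources used here. RMA puts the probe intensities of all 12 arrays on 1 distribution before summarising them, so a shift shared by most genes would not be seen. The probe-set values still differed in spread between arrays, with interquartile ranges of 2.64 to 2.97. Probe sets were named through the platform annotation: 18786 had 1 symbol, 6 had several and 2420 had none. All 54 serpin probe sets are numbered by the Entrez gene, and all 54 genes were found in RefSeq (GRCm38.p6). RNA stayed in RNAlater for 24 hours, and 300 ng was labelled per array, per the labels' protocols.

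No further normalisation or filter was applied. limma 3.58.1 in R 4.3.3 was fitted on 21212 probe sets with 1 mean per strain and sex, and 6 contrasts were tested with empirical Bayes moderation. The Benjamini-Hochberg adjustment covered every probe set, and calls were made at 0.05. Replicates are separate mice, 3 per group. The fit was tested on simulated data. Where the dimmer group of a called gene averaged under the olfactory receptor guide, its arrays were set to at least the guide and the ratio is given as at least that fold, a step added after the data were seen. The adjusted p beside such a fold is that of the fitted difference, from the values as deposited. Genes were named in full if they passed at 2-fold or more in a strain or sex comparison, and otherwise by family. The members, the gene lists and the marker lists were chosen with earlier results of these data known. The motifs GTTAAT and TTCNNNGAA were searched on both strands of RefSeq promoters, 250 bases before to 50 after each start, of which 47 of the 54 genes had one. Alternatives were quantile and cyclic loess normalisation, an intensity trend with robust prior, only probe sets above the median level, array weights, a covariate for array spread, a replicate block, fits of only the groups compared, a fold minimum and leaving out each array.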

Additional observations from a re-analysis of the deposited data

Results flagged for a closer look

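The strain difference of Serpina1d was not the same in the sexes. The difference KK minus C57BL/6J was -1.70 in males and -3.36 in females on the log2 scale, and the male difference minus the female one was 1.66 (SE 0.239, adjusted p = 0.0168 in the limma fit). All 3 KK females were below all 3 KK males, whereas C57BL/6J males and females overlapped. The adjusted p was over 0.05 when KK male 2 (0.0594), C57BL/6J male 3 (0.0603) or C57BL/6J female 3 (0.0534) was left out.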

How the results depend on the processing

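None of the 38 called member differences changed sign in any alternative run, and 25 kept their call in every run that tested them. The fold minimum was not counted in this. Genes at or under the median level were not in the run limited to probe sets above it. Of 738 values recomputed, 76 missed the threshold. Counts moved most with array weights, which gave 13 serpin genes between strains in males and 7 between sexes in KK, and with a minimum of 1.5-fold, which left 7 between strains over both sexes. Leaving out each array in turn gave 10 to 14 genes for strain over both sexes, 7 to 9 in females, 5 to 9 in males, 2 to 4 for sex in C57BL/6J, 2 to 3 in KK and 0 to 1 for the strain by sex term. The cause of these shifts was not tested. A covariate for the spread (interquartile range) of the arrays, chosen after seeing the data, gave 16, 11, 9, 4, 3 and 1 in that order.

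The labels give no pairing or batch, and the replicate numbers were not taken to pair the mice. Of 18 same-numbered pairs of arrays from different groups 10 correlated over 0.1 (-0.356 to 0.477). Of the 12 arrays 8 correlated best with an array of their own number. These values do not settle whether mice of the same number shared something, which was not tested. With the replicate number as a block the counts were 14, 10, 8, 4, 3 and 1. Serpinb1a between strains in males then had an adjusted p of 0.0519, and Serpinh1, which did not pass as reported, 0.0339 over both sexes and 0.0105 in females. With the covariate for array spread Serpinh1 had 0.00506 and 0.00425 in those comparisons. Serpina10 between strains in males, which did not pass as reported, had 0.0371 with the block and 0.0179 with the covariate. With 3 mice per group and values near background for 30 of the 54 genes, small changes could be missed.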

Other observations

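Values that single mice set apart were seen for genes that passed no comparison. Serpina7 read 8.74 in C57BL/6J female 3 and 7.22 and 7.31 in the other two C57BL/6J females. Serpinb6a read 8.01 in KK female 1 and 7.28 and 7.48 in the other two KK females.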
